A study of Mus musculus with 12 samples.

Results

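The 37 genes described here are interferon response genes, which cells switch on when type I interferon reaches its receptor. They were taken by symbol from a list of known interferon response genes; the rule used no measured value, but the list was drawn up with earlier results of these data known. All 37 were among the 24421 symbols of the count table, and all 37 were among the 12744 genes that passed the filter on low counts. The data are RNA-seq counts from bone marrow cells sorted as GFP-positive LSK. This fraction is defined as lacking lineage markers and carrying Kit and Sca-1, and it is known to hold blood stem cells and early progenitors. The cells came from secondary recipient mice that had received donor stem and progenitor cells of 4 genotypes, with 3 libraries per genotype. The double genotype (miR146aKO_Runx1mut, libraries A001, A031 and A051) lacked miR-146a and carried the frameshift mutant Runx1S291fsX300. The Runx1mut libraries (A021, A042 and A058) carried that mutant with miR-146a intact. The miR146aKO libraries (A047, A150 and A151) lacked miR-146a with Runx1 intact and are titled Mir-146 KO/Empty. The wildtype libraries (A015, A040 and A053) had both genes intact and are titled Empty. All 4 groups are GFP-positive transplanted cells, and neither the meaning of Empty nor the way the mutant was introduced is stated in the titles. Donor and recipient age and strain are also unstated there.

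Type I interferons bind a receptor made of Ifnar1 and Ifnar2, whose kinases Tyk2 and Jak1 phosphorylate signal transducers such as Stat2. These join Irf9 in the complex ISGF3, which enters the nucleus and binds a short promoter element, the interferon-stimulated response element (ISRE). The target genes block viruses at many steps, and in blood stem cells interferon signalling is known to draw quiescent cells into cycle. Interferon gamma acts at another element, the gamma-activated site (GAS). miR-146a is a microRNA known to restrain Toll-like receptor and IL-1 receptor signalling through Traf6 and Irak1, upstream of interferon production.

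The elements through which interferon is known to act are shown first, since many members, though not all, hold one near the start site. RefSeq promoters of GRCm38.p6, running from 250 bases before to 50 bases after the start site, were found for 29 of the 37 members. The motif GAAANNGAAA, searched on both strands as the core of the ISRE, was present in 16 of those 29 members (55.2%), against 3.99% of 27025 genes with a promoter of the same length. The GAS motif TTCNNNGAA was present in 8 of the 29 (27.6%), against 9.55% of genes. The following windows hold ISRE matches in capitals, some read on the opposite strand, with 15 bases on each side, written 5′ to 3′ on the strand of the gene.
Isg15 (chr4:156200860-156200911, minus strand, 3 overlapping matches): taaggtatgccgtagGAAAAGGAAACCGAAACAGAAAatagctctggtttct
Ifit3 (chr19:34583358-34583431, plus strand, 2 matches): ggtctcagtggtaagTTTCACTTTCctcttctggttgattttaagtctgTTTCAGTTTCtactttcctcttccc
Gbp3 (chr3:142559984-142560029, plus strand, 2 overlapping matches): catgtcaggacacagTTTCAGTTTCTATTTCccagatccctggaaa
Stat2 (chr10:128270261-128270300, plus strand): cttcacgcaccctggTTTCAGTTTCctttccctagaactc
Ifitm2 (chr7:140955983-140956022, minus strand): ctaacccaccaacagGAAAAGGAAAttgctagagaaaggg
Ddx58 (chr4:40239799-40239838, minus strand): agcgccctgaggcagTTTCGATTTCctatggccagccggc
Isg15 holds the longest run, whereas Stat2, Ifitm2 and Ddx58 each hold a single match. Ifitm3 held 2 matches just after its start site. Irf1, Irf7 and Ifitm1 had no ISRE match in this window, and Irf1 had a GAS match between 90 and 82 bases before its start site. A match describes letters only and does not show that a factor binds.

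**Figure D1:**
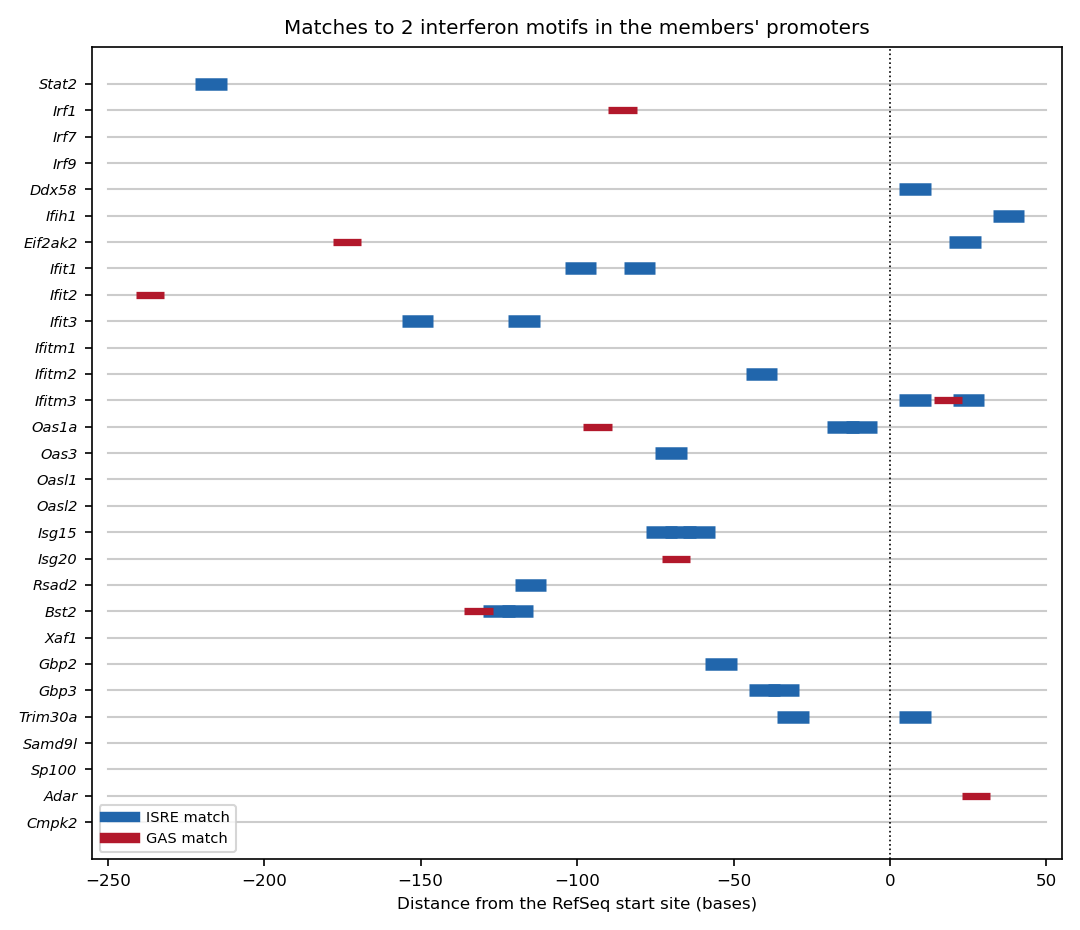
Positions of ISRE (blue) and GAS (red) matches in the promoters of the 29 members with a RefSeq promoter, from 250 bases before to 50 bases after the start site (dotted line). In 16 of the 29 genes there is at least 1 blue mark, mostly before the start site, and Irf1 has only a red one.

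The microRNA that was deleted in 2 of the genotypes has the following mature sequence in RefSeq, with its seed (bases 2 to 8) in capitals, beside its relative miR-146b, which shares the seed.
miR-146a-5p (chr11:43374435-43374456, minus strand): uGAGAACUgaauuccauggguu
miR-146b-5p (chr19:46342790-46342811, plus strand): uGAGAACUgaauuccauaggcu
A 7-base match to this seed lay in the 3′ UTR of 4 of the 36 members with an annotated 3′ UTR (11.1%), namely Adar, Ifit2, Stat2 and Xaf1, against 12.3% of 19549 genes. The members' share is thus near that of all genes. Traf6, a known target that signals towards interferon production, held 4 such matches. The Stat2 site and 1 of the Traf6 sites are shown with the match in capitals.
Stat2: tgggcccttcAGTTCTCtcttccagtt
Traf6: tctggtgttgAGTTCTCatttagttga

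Total counts per library ran from 3540043 to 7026393, with 3.91% to 17.8% of them from Rn45s, a ribosomal RNA. Mir146, the precursor gene, had 0 counts in 11 libraries, including all 6 with intact miR-146a, so its zeros check no label; its 14 counts in A031 go against the label of that library. Runx1 counts cannot show the frameshift, and Runx1 was not called in any comparison. Averaged over both backgrounds, its log2 fold change was -0.99 with miR-146a loss (SE 0.31, edgeR adjusted p = 0.194). With the Runx1 mutation it was 0.44 (SE 0.31, edgeR adjusted p = 0.594). Kit stood at 164 to 219 CPM (counts relative to library size, with TMM factors) in the double genotype, 100 to 709 in Runx1mut, 24.5 to 59.6 in miR146aKO and 217 to 435 in wildtype. Ly6a, which encodes Sca-1, stood at 12.1 to 121, 20.4 to 221, 504 to 1020 and 45.9 to 216 CPM in the same order. Each miR146aKO library thus had less Kit and more Ly6a than any library of the other genotypes, so these transcripts were not even across the sorted cells. The summed CPM of 4 Y-linked genes ran from 0.546 to 241, with the wildtype libraries at 0.546 to 31.9 and the miR146aKO libraries at 99.0 to 241. Between these groups genotype and Y-linked level cannot be told apart. The common biological coefficient of variation was 0.809. No label ties each library to a mouse of its own, so p-values measure the spread between these libraries, which may be technical.

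Per kilobase of exon, averaged over the 12 libraries, the members spanned a range of 0.451 to 441 CPM. The 3 Ifitm genes, which encode small membrane proteins that hinder virus entry, had the highest averages, with Ifitm3 at 441, Ifitm2 at 318 and Ifitm1 at 93.1 CPM per kilobase. This order did not hold in each genotype. Ifitm2 exceeded Ifitm3 in Runx1mut, at 317 against 144 CPM per kilobase, and Ifitm1 was below Bst2 in the double genotype (30.4 against 39.3) and in Runx1mut (17.6 against 19.5). The next by average was Bst2 at 33.6 CPM per kilobase, which encodes tetherin, a protein that holds budding virus at the cell surface. Eif2ak2, the RNA-activated kinase PKR, followed at 29.6. The genes best known as markers of an acute interferon response were far lower. Isg15 stood at 4.33, Usp18 at 1.95, Mx1 at 1.18 and Mx2 at 0.451 CPM per kilobase, the last 2 being the lowest of the list. Mx1 and Ifit3 had 0 counts in 3 libraries each, Oas2, Mx2 and Isg15 in 2 each, and Usp18, Rsad2 and Cmpk2 in 1 each.

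**Figure D2:**
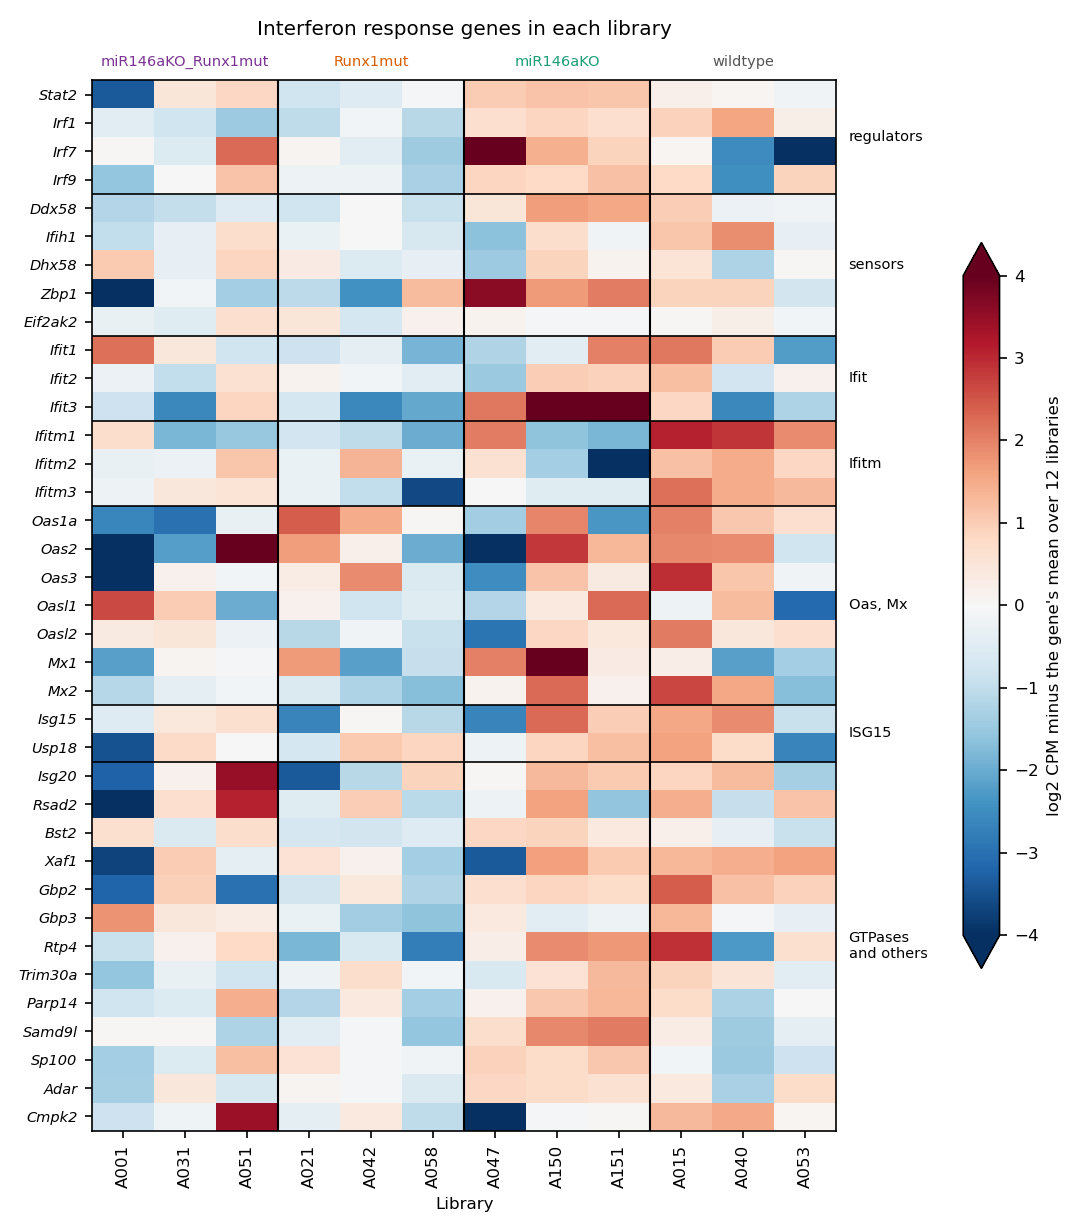
log2 CPM of each of the 37 members (rows, grouped by role) in each of the 12 libraries (columns, grouped by genotype), minus the gene's mean over the libraries; the colours stop at 4 in either direction. Ifitm1 and Ifitm3 are red in the 3 wildtype libraries and the regulators are red in the 3 miR146aKO libraries, while A001 and A058 are mostly blue.

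No member passed the edgeR test at an adjusted p under 0.05 in any of the 8 comparisons. In Runx1mut libraries 33 of the 37 members had a log2 fold change below 0 relative to wildtype (against 49.7% of all genes tested) and 4 above (against 50.3%). The members' median was -0.82, against 0.01 over all genes. At an unadjusted p under 0.05, 6 members were lower (Irf1, Rtp4, Gbp3, Oasl2, Ifitm1 and Ifitm3, against 2.88% of genes) and 0 were higher (against 2.64%), while 0 members and 0% of genes passed after adjustment. By DESeq2 3 members were lower, namely Ifitm1, Ifitm3 and Irf1 (against 0.532% of genes), and by limma-voom 0. Without A015, the wildtype library with the highest member levels, 25 of 37 members were on the lower side and the median was -0.41. With a Y-linked covariate in the fit 28 were on the lower side and the median was -0.67.

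The same mutation on the background without miR-146a was compared in libraries that the first comparison did not use. There, 24 of 37 members lay on the lower side in the double genotype relative to miR146aKO (against 50.4% of genes) and 13 on the higher (against 49.6%), with a median of -0.82 against -0.01. At an unadjusted p under 0.05, 6 members were lower (Irf1, Ifit3, Zbp1, Ddx58, Samd9l and Trim30a, against 7.17% of genes) and 0 higher (against 7.59%). After adjustment edgeR called 0 members, against 0.0157% of genes called lower. By DESeq2 5 members were lower, namely Ddx58, Ifit3, Irf1, Samd9l and Zbp1 (against 3.51% of genes), and by limma-voom 0. Without A150 the median was -0.26, with 23 members on the lower side.

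Averaged over both miR-146a backgrounds, 29 of 37 members lay on the lower side with the Runx1 mutation (against 49.8% of genes) and 8 on the higher (against 50.2%), and the median was -0.77. At an unadjusted p under 0.05, 10 members were lower (against 6.29% of genes) and 0 were higher (against 6.28%). The edgeR test called 0 members after adjustment, against 0.0628% of genes called lower. DESeq2 called Ddx58, Ifitm1 and Irf1 (3 members, against 2.24% of genes) and limma-voom called 0. The member with the smallest edgeR p was Irf1, at an adjusted p of 0.113. Leaving out 1 library at a time left 27 to 35 members on the lower side, and the median ran from -1.01 without A051 to -0.55 without A015. Without A015 only 4 members had an unadjusted p under 0.05. A Y-linked covariate in the fit left 5 such members, with 31 on the lower side and a median of -0.81.

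With loss of miR-146a alone, the members lay on both sides of wildtype in shares near those of all genes. In miR146aKO libraries 19 members were on the higher side of wildtype (against 49.9% of genes) and 18 on the lower (against 50.1%), with a median of 0.02. At an unadjusted p under 0.05, 4 members were higher (Irf7, Samd9l, Ifit3 and Sp100, against 8.81% of genes) and 3 were lower (the 3 Ifitm genes, against 7.09%). After adjustment edgeR called 0 members, against 0.149% of genes called higher and 0.0314% called lower. DESeq2 called Ifit3, Irf7 and Samd9l higher (3 members, against 4.86% of genes) and Ifitm3 lower (1 member, against 2.76%), and limma-voom called 0. The median was -0.26 without A150 and 0.61 without A015. With only the 6 libraries of this comparison in the edgeR fit, Ifitm3 was the only member called, lower in miR146aKO, among 158 genes called in all.

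In the double genotype relative to wildtype 22 members lay on the lower side (against 48.7% of genes) and 15 on the higher (against 51.3%), with a median of -0.48. At an unadjusted p under 0.05, 4 members were lower (against 4.43% of genes) and 0 higher (against 4.99%), and edgeR called 0 after adjustment, as it did of all genes (0%). DESeq2 called Ifitm1 and Irf1 lower (2 members, against 0.910% of genes), and limma-voom called 0. The median was 0.14 without A015 and -1.22 without A051, so its sign rested on A015. With a Y-linked covariate in the fit the median was -0.10, with 20 members on the lower side. Relative to Runx1mut, the double genotype had 23 members on the higher side (against 50.4% of genes) and 14 on the lower (against 49.6%), with a median of 0.72. That median was 0.01 by limma-voom and -0.04 without A051. At an unadjusted p under 0.05, 2 members were higher (against 2.88% of genes) and 1 lower (against 1.75%); edgeR, DESeq2 and limma-voom called 0 after adjustment, and edgeR called 0% of genes. Averaged over both Runx1 backgrounds, miR-146a loss left 24 members on the higher side (against 49.2% of genes) and 13 on the lower (against 50.8%), with a median of 0.49. There 4 members had an unadjusted p under 0.05 on the higher side (against 7.10%) and 0 on the lower (against 4.66%). The edgeR test called 0 members after adjustment, against 0.369% of genes called higher; DESeq2 called Irf7 (1 member, against 3.06% of genes) and limma-voom 0.

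**Figure D3:**
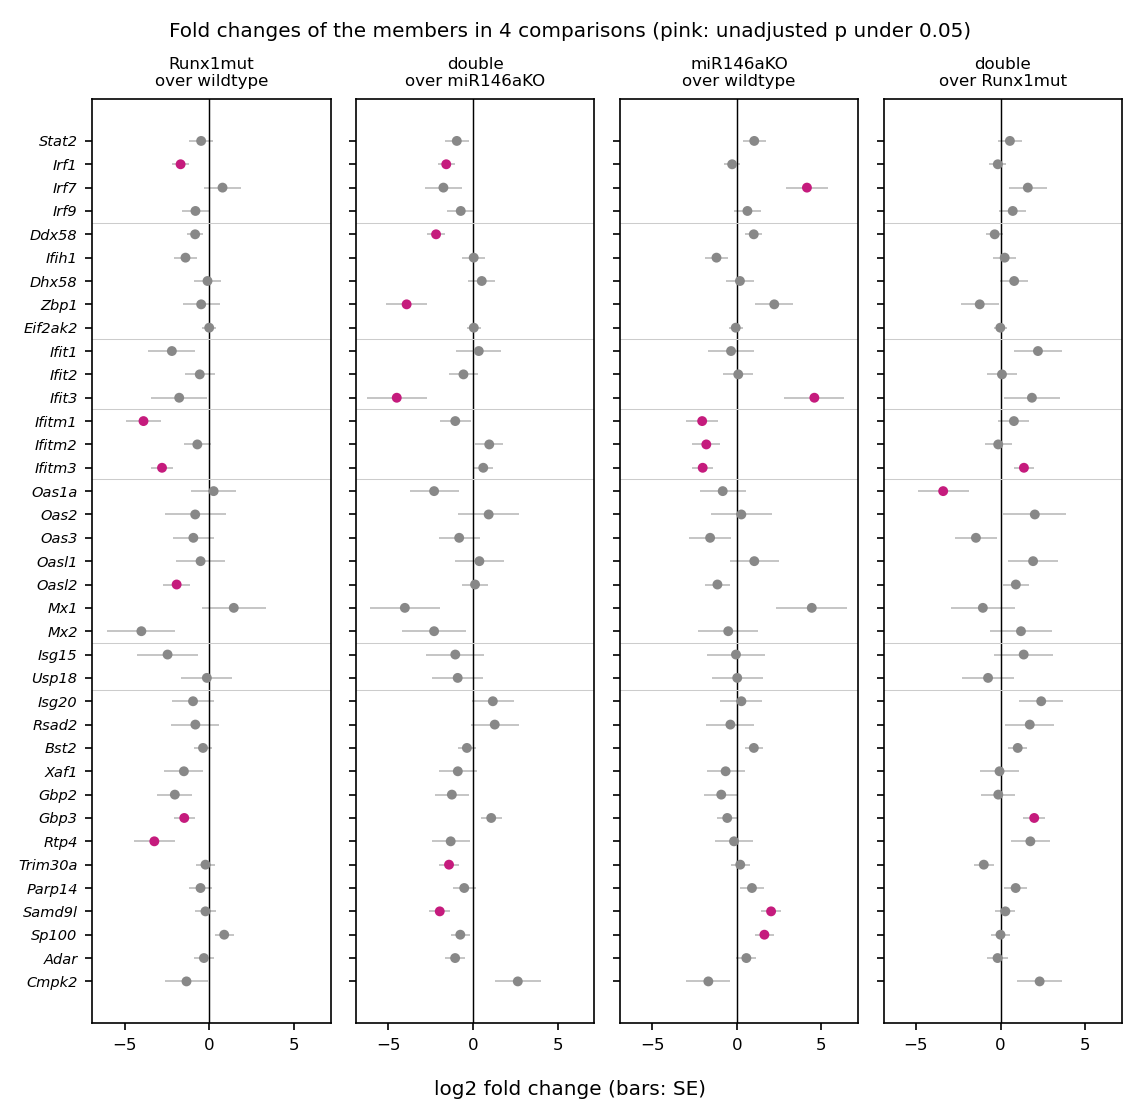
log2 fold change with its SE for each of the 37 members in 4 comparisons, each between 3 and 3 libraries, with pink points at an unadjusted p under 0.05. Most points of Runx1mut over wildtype lie left of 0, while those of miR146aKO over wildtype lie on both sides, with the Ifitm genes to the left and Irf7, Ifit3, Samd9l and Sp100 to the right.

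The regulators come first, as they carry the signal to the other members. Irf1 (chromosome 11, 53770014 to 53778374, plus strand) encodes a transcription factor that interferon gamma induces and that binds ISRE-like elements. Its level was 30.1, 23.6 and 14.7 CPM in the double genotype, 20.2, 37.6 and 18.9 in Runx1mut, 65.5, 74.8 and 65.0 in miR146aKO and 77.5, 123 and 48.4 in wildtype. Every library with mutant Runx1 was below every library with intact Runx1. Of all genes tested, 0.330% were separated in this direction between the 6 and 6 libraries, and Irf1 was the only member that was; 0 members were separated in the other direction (against 0.322% of genes). The averaged log2 fold change was -1.64 (SE 0.36, edgeR adjusted p = 0.113), and it was -1.70 (SE 0.51) in Runx1mut relative to wildtype and -1.58 (SE 0.51) in the double genotype relative to miR146aKO. The interaction, which asks whether these differ, was 0.11 (SE 0.70, adjusted p = 0.983). Over the other settings the averaged value ran from -1.83 to -1.46 and its adjusted p from 0.000272 by DESeq2 to 0.333. Irf1 shares 135 bases of exon with Gm17334 on the other strand, whose reads cannot be told apart here.

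Irf7 (chromosome 7, 141262706 to 141266481, minus strand) is the factor through which interferon amplifies its own production, and plasmacytoid dendritic cells are known for high levels of it. Its level was 14.9, 9.74 and 71.3 CPM in the double genotype, 15.6, 10.6 and 5.12 in Runx1mut, 256, 39.6 and 27.4 in miR146aKO and 15.3, 2.21 and 0.568 in wildtype. The miR146aKO libraries were all above the wildtype ones, with A047 far above the rest. In the double genotype A051 lay within the miR146aKO range, while A001 and A031 lay within the Runx1mut and wildtype ranges. The log2 fold change of miR146aKO over wildtype was 4.14 (SE 1.24, edgeR adjusted p = 0.140), 2.47 without A047 and 6.29 without A015. Averaged over both Runx1 backgrounds it was 2.88 (SE 0.83, adjusted p = 0.153). Over the other settings the adjusted p ran from 0.000687 without a filter to 0.504 for the first value and from 0.000351 without a filter to 0.436 for the second, and DESeq2 called both. Irf7 shares 45 bases of exon with Phrf1 on the other strand.

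Stat2 (chromosome 10, 128270559 to 128292849, plus strand), the ISGF3 subunit with the ISRE shown above, stood at 4.98, 75.8 and 96.5 CPM in the double genotype. It stood at 31.1, 37.4 and 52.4 CPM in Runx1mut, 110, 119 and 116 in miR146aKO and 61.8, 57.6 and 49.5 in wildtype. The miR146aKO libraries lay close together and above all the rest, whereas A001 of the double genotype was far below every other library. How many of all genes lay above all the rest in miR146aKO was not counted. The log2 fold change of miR146aKO over wildtype was 1.03 (SE 0.69, edgeR adjusted p = 0.506). Irf9, the DNA-binding subunit of ISGF3, ranged from 5.09 CPM in wildtype A040 to 67.0 in miR146aKO A151 and had an unadjusted p above 0.05 in each of the 8 comparisons.

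The sensors detect foreign nucleic acid inside the cell. Ddx58 (chromosome 4, 40203773 to 40239828, minus strand) encodes RIG-I, a sensor of viral RNA. It stood at 23.2, 27.1 and 36.3 CPM in the double genotype, 29.7, 52.2 and 28.3 in Runx1mut, 74.1, 167 and 153 in miR146aKO and 104, 44.9 and 47.8 in wildtype. The double genotype was below both miR146aKO and wildtype without overlap, and Runx1mut overlapped wildtype through A042. In the double genotype relative to miR146aKO the log2 fold change was -2.19 (SE 0.51, edgeR adjusted p = 0.114), and relative to wildtype it was -1.19 (SE 0.50, adjusted p = 0.487). Averaged over both miR-146a backgrounds the Runx1 mutation gave -1.51 (SE 0.35, adjusted p = 0.126), and over the other settings this adjusted p ran from 0.00224 by DESeq2 to 0.348.

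Zbp1 (chromosome 2, 173206612 to 173218923, minus strand) encodes a sensor of Z-form nucleic acid that can start necroptosis. It stood at 0.172, 12.8 and 5.08 CPM in the double genotype, the first being a single read. Its level was 6.51, 2.27 and 33.8 CPM in Runx1mut, 171, 45.1 and 58.5 in miR146aKO and 25.5, 25.7 and 8.09 in wildtype. The miR146aKO libraries were above all others, and A047 was the highest. How many of all genes were separated in this way was not counted, and relative to wildtype alone the share was 10.7%. The log2 fold change of the double genotype over miR146aKO was -3.93 (SE 1.22, edgeR adjusted p = 0.168, from 0.00428 without a filter to 0.344 over the other settings), against -0.48 (SE 1.09) for Runx1mut over wildtype. The difference between these, the interaction, was -3.45 (SE 1.58, adjusted p = 0.519).

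Eif2ak2 was nearly level between the genotypes. It stood at 118, 104 and 233 CPM in the double genotype, 207, 89.6 and 164 in Runx1mut, 161, 140 and 141 in miR146aKO and 153, 172 and 136 in wildtype. Its group means ran from 147 to 154 CPM, and its log2 fold changes were between -0.06 and 0.05 in the 8 comparisons, with SEs of 0.28 to 0.57. Eif2ak2 shares 221 bases of exon with Gm26637 and n-R5s29 on the other strand. Ifih1, the RNA sensor MDA5, stood at 21.3, 33.5 and 68.9 CPM in the double genotype, 35.4, 42.3 and 26.8 in Runx1mut, 13.2, 68.3 and 38.6 in miR146aKO and 90.7, 153 and 33.2 in wildtype. Dhx58, which encodes the related protein LGP2, stayed between 4.73 and 28.5 CPM in all libraries. The groups overlapped for both genes, and Dhx58 shares 141 bases of exon with Dhx58os on the other strand.

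Of the Ifit proteins, Ifit1 is known to bind viral RNA that lacks host cap marks. Ifit3 (chromosome 19, 34583531 to 34588731, plus strand) stood at 0.859, 0 and 3.63 CPM in the double genotype, 0.990, 0 and 0.171 in Runx1mut, 9.14, 35.5 and 57.3 in miR146aKO and 3.55, 0 and 0.568 in wildtype. Every miR146aKO library was above every other library, and the rest lay at or near 0. Relative to wildtype alone, 10.7% of all genes were higher in miR146aKO without overlap. The share above every other library was not counted. The log2 fold change averaged over both Runx1 backgrounds was 3.22 (SE 1.20, edgeR adjusted p = 0.288), and it depended on a few reads where the level was lowest. Ifit2 did not follow it. Ifit2 stood at 9.45, 5.49 and 17.4 CPM in the double genotype, 12.3, 10.2 and 8.02 in Runx1mut, 3.78, 22.7 and 21.4 in miR146aKO and 26.2, 6.42 and 12.5 in wildtype, with overlap throughout. Ifit1 ran from 0.568 CPM in wildtype A053 to 19.9 in double genotype A001 and overlapped in each comparison too. The Ifit genes have close copies in the mouse genome, so their counts are uncertain where reads fit several copies.

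The Ifitm genes had their highest levels in wildtype. All 3 lie within 1 stretch of chromosome 7 (140954837 to 141010770). Ifitm3 stood at 178, 284 and 299 CPM in the double genotype, 172, 104 and 16.5 in Runx1mut, 208, 146 and 148 in miR146aKO and 941, 581 and 509 in wildtype. All 9 libraries of the altered genotypes were below all 3 wildtype libraries, and the double genotype was above Runx1mut without overlap. The share of all genes below wildtype in all 9 was not counted. Relative to wildtype the log2 fold change was -2.79 (SE 0.62, edgeR adjusted p = 0.425) in Runx1mut, -2.02 (SE 0.60, 0.141) in miR146aKO and -1.42 (SE 0.59, 0.487) in the double genotype. These 3 comparisons share the wildtype libraries. By DESeq2 the first and second were called. Over the other settings the adjusted p ran from 0.000183 without a filter to 0.784 for the first and from 0.00335 without a filter to 0.420 for the second.

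For Ifitm3 the double genotype over Runx1mut gave a log2 fold change of 1.38 (SE 0.59, edgeR adjusted p = 0.998), opposite in sign to that of miR146aKO over wildtype. The interaction, the difference between these, was 3.40 (SE 0.85, edgeR adjusted p = 0.312), with a range of 2.89 to 4.07 over the other settings. Its adjusted p ran from 0.000900 without a filter to 0.522 over those settings, with DESeq2 at 0.0237 and limma-voom at 0.232. Ifitm1 stood at 72.5, 12.2 and 15.0 CPM in the double genotype, 25.5, 21.6 and 10.7 in Runx1mut, 181, 14.2 and 12.1 in miR146aKO and 374, 319 and 165 in wildtype. Only A047 of the altered libraries reached the wildtype range. Its log2 fold change over wildtype was -3.89 (SE 1.02, edgeR adjusted p = 0.608) in Runx1mut and -3.10 (SE 0.98, 0.470) in the double genotype. DESeq2 called both, and over the other settings the adjusted p ran from 0.000103 without a filter to 1.00 for the first and from 0.00140 without a filter to 0.726 for the second.

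Ifitm2, the third of the family, overlapped more. It stood at 122, 125 and 318 CPM in the double genotype, 123, 377 and 123 in Runx1mut, 225, 58.2 and 8.25 in miR146aKO and 337, 416 and 264 in wildtype. The miR146aKO libraries were below wildtype without overlap (log2 fold change -1.80, SE 0.83, edgeR adjusted p = 0.309), while A042 and A051 lay within the wildtype range. Together the 3 genes took 25.2% to 35.2% of all member counts in the double genotype, 17.6% to 35.9% in Runx1mut, 8.28% to 28.3% in miR146aKO and 48.6% to 54.2% in wildtype. The share was higher in each wildtype library than in any other. Ifitm2 and Ifitm3 are close in sequence, so reads may be split between them. Ifitm2 also shares 268 of its 655 bases of exon with Gm45717 on the same strand.

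**Figure D4:**
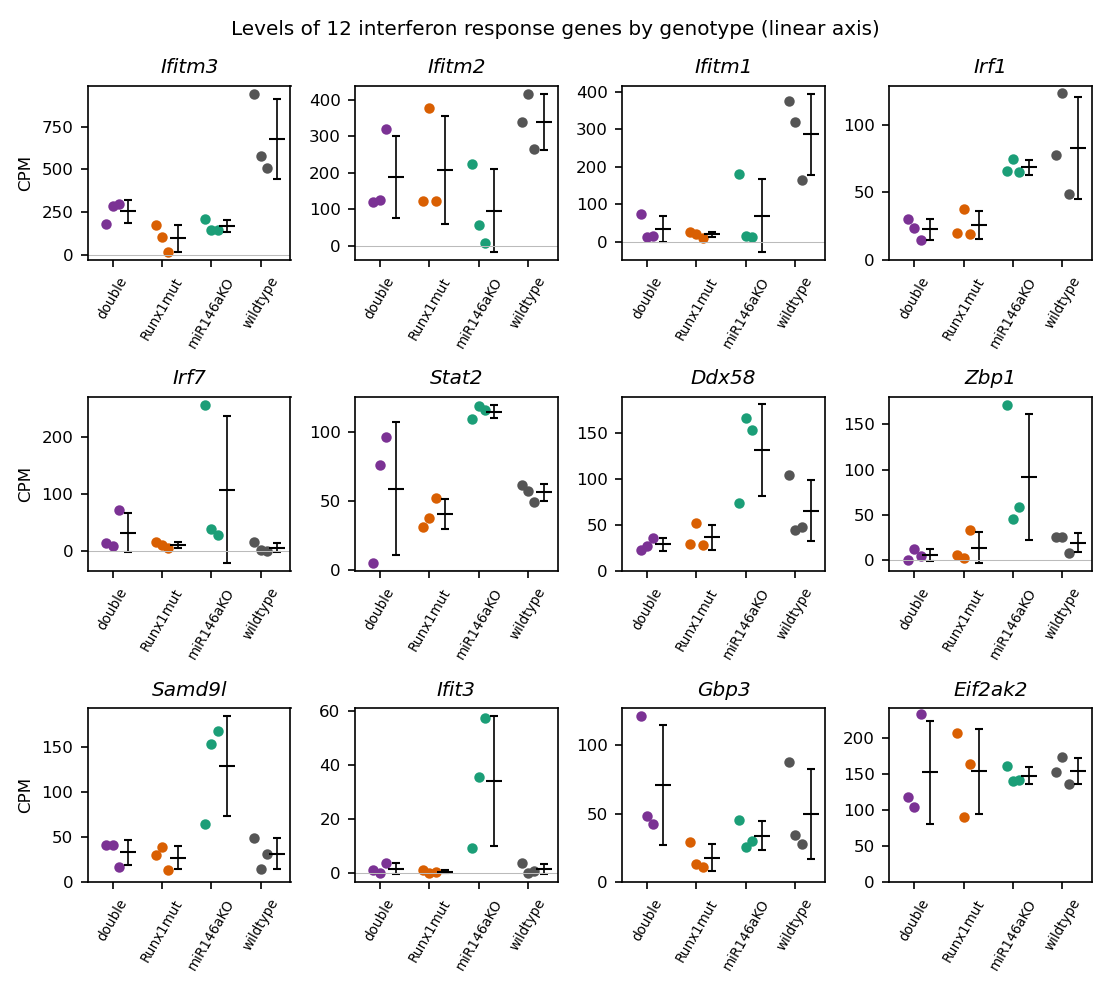
CPM of 12 members in each library (points, by genotype, linear axis) with the mean and SD of the 3 libraries beside them; double stands for miR146aKO_Runx1mut. Ifitm3 and Ifitm1 are highest in wildtype, Irf1 is lower in both groups with mutant Runx1, Stat2, Zbp1, Samd9l and Ifit3 are highest in miR146aKO, and Eif2ak2 is level.

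Several of the Oas proteins, though not all, make a messenger that activates RNase L, and Mx proteins are dynamin-like GTPases that trap viral particles. Of these 7 genes, 5 lay on the lower side in Runx1mut relative to wildtype (against 49.7% of genes) and 4 in miR146aKO (against 50.1%). Oasl2 stood at 39.8, 43.0 and 26.4 CPM in the double genotype, 14.1, 27.9 and 16.4 in Runx1mut, 3.78, 55.3 and 41.5 in miR146aKO and 132, 42.1 and 49.3 in wildtype. The Runx1mut libraries were below the wildtype ones (log2 fold change -1.93, SE 0.78, edgeR adjusted p = 0.825), and the other groups overlapped. Oas2 was decided by single libraries. It stood at 0, 1.42 and 148 CPM in the double genotype, 25.7, 9.08 and 1.71 in Runx1mut, 0, 57.9 and 20.4 in miR146aKO and 30.6, 30.3 and 4.40 in wildtype. Oas1a stood at 0.344, 0.177 and 3.14 CPM in the double genotype, against 22.6, 11.6 and 4.09 in Runx1mut (log2 fold change -3.39, SE 1.5, edgeR adjusted p = 0.999). It stood at 1.26, 16.2 and 0.485 CPM in miR146aKO and 16.9, 8.63 and 6.53 in wildtype, and it has near-identical copies nearby. Oas3 ran from 0.172 to 96.9 CPM and Oasl1 from 0.142 to 26.5. Mx1 was at 6.30, 35.7 and 1.70 CPM in miR146aKO, above the 1.64, 0 and 0.284 of wildtype, and Mx2 did not exceed 7.23 CPM anywhere.

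The ISG15 system attaches the ubiquitin-like protein Isg15 to others, and Usp18 removes it and also blocks the interferon receptor. Isg15 stood at 1.20, 2.66 and 3.14 CPM in the double genotype, 0, 1.99 and 0.682 in Runx1mut, 0, 10.4 and 4.13 in miR146aKO and 6.28, 7.97 and 0.852 in wildtype. Usp18 stood at 0, 6.55 and 3.63 CPM in the double genotype, 2.12, 7.94 and 6.99 in Runx1mut, 3.15, 7.0 and 8.98 in miR146aKO and 12.1, 6.42 and 0.284 in wildtype. The groups overlapped for both genes in every comparison. Isg15 has the longest ISRE run shown above and averaged 3.27 CPM over the 12 libraries.

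The 13 remaining members are GTPases and other effectors. Samd9l (chromosome 6, 3372257 to 3399572, minus strand), a brake on growth whose human counterpart is altered in inherited marrow failure, stood at 41.2, 40.9 and 16.7 CPM in the double genotype. Its level was 29.6, 38.4 and 13.3 CPM in Runx1mut, 64.9, 154 and 168 in miR146aKO and 49.2, 14.8 and 30.9 in wildtype. The miR146aKO libraries were above all others, a separation that was not counted over all genes. Relative to wildtype alone 10.7% of genes were higher in miR146aKO without overlap. Its log2 fold change was 2.02 (SE 0.61, edgeR adjusted p = 0.146) in miR146aKO over wildtype and -1.97 (SE 0.61, 0.168) in the double genotype over miR146aKO. Over the other settings the adjusted p ran from 0.0201 by DESeq2 to 0.377 for the first and from 0.0273 by DESeq2 to 0.367 for the second.

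Sp100, a nuclear body protein, stood at 41.7, 73.7 and 252 CPM in the double genotype, 163, 106 and 99.6 in Runx1mut, 205, 183 and 232 in miR146aKO and 100, 38.7 and 60.9 in wildtype. It was higher in miR146aKO than in wildtype without overlap (log2 fold change 1.63, SE 0.58, edgeR adjusted p = 0.192). Parp14, an ADP-ribosyltransferase, overlapped in all comparisons, at 46.0, 54.6 and 216 CPM in the double genotype, 34.8, 105 and 30.7 in Runx1mut, 88.6, 168 and 198 in miR146aKO and 132, 32.5 and 80.1 in wildtype. Gbp3 (chromosome 3, 142560026 to 142573209, plus strand), is a guanylate-binding GTPase that attacks intracellular microbes. Its level stood at 122, 48.4 and 42.5 CPM in the double genotype, against 29.1, 13.2 and 11.3 in Runx1mut. The 3 libraries of each group did not overlap (log2 fold change 1.99, SE 0.64, edgeR adjusted p = 0.979). Gbp3 stood at 45.7, 25.3 and 30.1 CPM in miR146aKO and 87.9, 34.1 and 27.7 in wildtype, and its interaction was 2.55 (SE 0.89, adjusted p = 0.402). Gbp genes are a family of close copies.

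The other 9 effectors are given more briefly. Bst2 was at 49.2, 51.7 and 36.2 CPM in miR146aKO, above the 31.8, 21.9 and 14.5 of wildtype. Gbp2 and Xaf1 were at 5.97 to 18.9 and 4.95 to 19.7 CPM in Runx1mut, below the 27.3 to 76.7 and 33.6 to 41.3 of wildtype. Isg20, Rsad2 and Cmpk2 had their highest value in A051 of the double genotype, at 238, 77.4 and 78.8 CPM. Rtp4 averaged 2.65 ± 2.20 CPM in Runx1mut and 25.4 ± 32.4 in wildtype (SD, n = 3 each), where A015 alone had 62.2. Trim30a and Adar, an RNA-editing enzyme, ran from 15.6 to 116 and from 14.8 to 68.1 CPM. Adar shares 1365 bases of exon with Chrnb2 on the other strand, and Rtp4 shares 296 with Gm45338 on the same strand. None of the 9 passed the edgeR test after adjustment.

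Counts of separated libraries were read against the share of all genes. In Runx1mut relative to wildtype 6 members were lower without overlap (Irf1, Xaf1, Gbp2, Oasl2, Ifitm1 and Ifitm3, against 6.41% of genes) and 0 higher (against 5.72%). In miR146aKO relative to wildtype 8 members were higher (Sp100, Stat2, Mx1, Ifit3, Zbp1, Samd9l, Irf7 and Bst2, against 10.7% of genes). There 4 members were lower (Cmpk2, Gbp2, Ifitm2 and Ifitm3, against 10.3%). In the double genotype relative to wildtype 6 were lower (Irf1, Xaf1, Ddx58, Oas1a, Ifitm1 and Ifitm3, against 7.17%) and 0 higher (against 6.32%). Relative to Runx1mut, the double genotype had 2 higher (Gbp3 and Ifitm3, against 3.85%) and 2 lower (Oas1a and Trim30a, against 5.42%). Relative to miR146aKO, it had 9 lower (Stat2, Irf1, Mx1, Mx2, Ifit3, Zbp1, Adar, Ddx58 and Samd9l, against 9.81%) and 0 higher (against 9.44%). The count of 9 in the last comparison was the highest of these. Separation of 1 genotype from all other libraries was not counted over all genes. It was described above for Stat2, Zbp1, Ifit3 and Samd9l in miR146aKO and for Ifitm3 in wildtype.

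The mean log2 CPM over all 37 members summarised each library. It averaged 3.79 ± 0.81 in the double genotype, 3.64 ± 0.35 in Runx1mut, 4.65 ± 0.64 in miR146aKO and 4.50 ± 0.79 in wildtype (SD, n = 3 each). The Runx1mut libraries (3.24 to 3.89) were all below the miR146aKO libraries (3.96 to 5.23), and every other pair of groups overlapped. Without the Ifitm genes the means were 3.54, 3.44, 4.53 and 4.14. Libraries within a genotype differed widely. Wildtype A015 held the highest value of 9 members and lay above the member's own median for 35 of 37. In the double genotype A051 held the highest value of 7 members, while A001 held the lowest of 12 and had 4 members at 0. Within a genotype the highest library exceeded the lowest by a median of 3.88 times in the double genotype, 2.89 in Runx1mut, 3.79 in miR146aKO and 3.25 in wildtype, over the members with no library at 0.

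Other genes of the interferon pathway were taken from lists that hold no member. No interferon gene passed the filter. Of 21 interferon genes, 19 to 21 had 0 counts in each library, and the exceptions were small apart from Ifng at 47.6 CPM in miR146aKO A047 and Ifnl3 at 4.78 CPM in A031. The receptor and kinase genes were present. Jak1 stood at 169 to 309 CPM in the double genotype, 162 to 313 in Runx1mut, 257 to 465 in miR146aKO and 229 to 316 in wildtype. Of the 9 receptor and kinase genes tested, 8 were on the higher side in miR146aKO relative to wildtype (against 49.9% of genes). Of these, 2 had an unadjusted p under 0.05 (against 8.81%). The edgeR test called 0 in any comparison.

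Of 15 genes that induce interferon, 1 was called, in a comparison where edgeR called 0.369% of all genes higher. Tlr9, an endosomal receptor for DNA that plasmacytoid dendritic and B cells are known to carry, was higher with miR-146a loss averaged over both Runx1 backgrounds (log2 fold change 6.05, SE 1.09, edgeR adjusted p = 0.0451). It stood at 1.03, 0.354 and 24.9 CPM in the double genotype, 0.566, 0 and 0.341 in Runx1mut, 50.7, 128 and 53.6 in miR146aKO and 0.955, 0.221 and 0.142 in wildtype. The difference lay mainly between miR146aKO and wildtype, with A051 as the high library of the double genotype. Traf6 stood at 102 to 188 CPM in the double genotype, 53.9 to 121 in Runx1mut, 66.7 to 118 in miR146aKO and 69.5 to 150.9 in wildtype. Trim25, a ubiquitin ligase that activates RIG-I, stood at 261 to 543, 214 to 242, 330 to 484 and 157 to 340 CPM. Of 14 feedback inhibitors 0 were called, and Ptpn11 and Ptpn1, phosphatases of the pathway, ran from 61.6 to 160 and from 27.5 to 213 CPM.

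A second list held 59 tested interferon-stimulated genes that are not members, and in it 2 were called. With the Runx1 mutation averaged over both backgrounds, 45 of the 59 lay on the lower side (against 49.8% of genes) and 14 on the higher (against 50.2%). Of all genes tested, 0.0628% were called lower there. Shisa5, a p53-inducible protein of the endoplasmic reticulum, was called lower (log2 fold change -2.12, SE 0.36, edgeR adjusted p = 0.0482). It stood at 45.9, 111 and 187 CPM in the double genotype, 52.8, 135 and 160 in Runx1mut, 1104, 1184 and 904 in miR146aKO and 310, 215 and 179 in wildtype. Its highest levels were in miR146aKO. With miR-146a loss averaged over both Runx1 backgrounds, 0.369% of all genes were called higher. Among them was Ifi204, a nuclear DNA sensor (log2 fold change 6.39, SE 1.21, edgeR adjusted p = 0.0471). It stood at 7.39, 19.0 and 42.8 CPM in the double genotype, 0.566, 0 and 0 in Runx1mut, 0.630, 42 and 39.3 in miR146aKO and 0.682, 0 and 0.426 in wildtype. The one library without miR-146a that did not stand out was A047. In miR146aKO relative to wildtype 40 of the 59 lay on the higher side (against 49.9% of genes). In the double genotype relative to miR146aKO 48 lay on the lower side (against 50.4%), with 0 called in either. Ly6e, the most abundant of them, ran from 761 to 2148 CPM.

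Among 19 genes biased towards interferon gamma 16 lay on the lower side with the Runx1 mutation averaged over both backgrounds (against 49.8% of genes). Their median was -1.31, 7 had an unadjusted p under 0.05 on that side (against 6.29% of all genes), and edgeR called 0. Serpina3g stood at 19.3 to 416 CPM in the double genotype, 78.9 to 434 in Runx1mut, 77.9 to 208 in miR146aKO and 149 to 234 in wildtype. Ifi47, an immunity-related GTPase, stood at 41.8 to 96.5, 85.1 to 322, 24 to 92.5 and 124 to 175 CPM. Of 15 MHC class I genes tested, which interferon raises, 12 lay on the lower side in that comparison (against 49.8% of genes) and 0 were called. B2m, the light chain of every class I molecule, stood at 1952 to 5479 CPM in the double genotype, 1868 to 3285 in Runx1mut, 4838 to 6289 in miR146aKO and 3291 to 3541 in wildtype. H2-K1 stood at 862 to 1649, 907 to 1534, 1596 to 1854 and 848 to 1974 CPM in the same groups.

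Transcripts that mark cell types differed between the libraries beside these values. In bulk libraries fewer cells of a type and less RNA per cell cannot be told apart. Stem cell markers summed to 324 to 4006 CPM in the double genotype, 557 to 4986 in Runx1mut, 1125 to 1951 in miR146aKO and 2939 to 7155 in wildtype. Of 26 such markers 24 lay on the lower side in Runx1mut relative to wildtype (against 49.7% of genes). The count was also 24 in miR146aKO (against 50.1%) and 24 in the double genotype (against 48.7%), with 0 called by edgeR. Mecom was at 0.242 to 28.9, 0.424 to 47.9, 3.38 to 54.2 and 55.4 to 247 CPM in the 4 groups. A031 of the double genotype and A042 of Runx1mut were the libraries of their groups with the highest stem cell markers. They had 284 and 104 CPM of Ifitm3 and 23.6 and 37.6 CPM of Irf1, below every wildtype library. The mean log2 CPM over all 37 members in these libraries, 3.92 and 3.89, lay within the wildtype range of 3.83 to 5.36. These are single libraries, and the Mir146 counts of A031 go against its label. Whether the stem cell content of a library bears on its Ifitm3 and Irf1 was not tested. Neutrophil markers summed to 13735 to 60672 CPM in the double genotype and 2795 to 58343 in Runx1mut. They summed to 4093 to 12348 CPM in miR146aKO and 2441 to 28936 in wildtype. Of these markers 16 of 17 lay on the higher side in Runx1mut relative to wildtype (against 50.3% of genes), with 0 called.

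Several lists of differentiated cell markers were higher in miR146aKO libraries and others lower. Of all genes tested, 49.9% lay on the higher side in miR146aKO relative to wildtype and 50.1% on the lower. The edgeR test called 0.149% of genes higher there. With the averaged Runx1 mutation 50.2% of genes lay on the higher side. B lineage markers summed to 64.1 to 460 CPM in the double genotype, 20.1 to 1035 in Runx1mut, 6171 to 11507 in miR146aKO and 36.3 to 514 in wildtype, and 16 of 16 lay on the higher side in miR146aKO relative to wildtype, 1 of them called by edgeR. Monocyte and macrophage markers summed to 2226 to 8802, 335 to 1922, 1459 to 11654 and 316 to 1570 CPM in the same groups, with 17 of 18 on the higher side in that comparison and 0 called. Plasmacytoid dendritic cell markers summed to 173 to 773, 258 to 504, 676 to 941 and 351 to 678 CPM, with 5 of 7 tested on the higher side. The defining marker Siglech was at 0 in 9 libraries and reached 7.24 CPM in A150, while Tcf4 made up 211 to 452 CPM of the miR146aKO sums. Megakaryocyte markers summed to 98.4 to 2515, 178 to 2278, 148 to 293 and 405 to 1782 CPM. Of the 13, 11 lay on the lower side in miR146aKO relative to wildtype and 11 on the higher side with the averaged Runx1 mutation, with 0 called. Of 5 mast cell and basophil markers tested, 4 and 5 lay on those same sides, with 0 called. T and NK cell markers were high in A047, the library with the highest Irf7 and Zbp1, where Cd3e was at 642 CPM and the list summed to 2483, against 66.9 to 665 CPM in the other 11 libraries. The part of these cell markers in the values of the members, Tlr9, Shisa5 and Ifi204 was not tested.

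**Figure D5:**
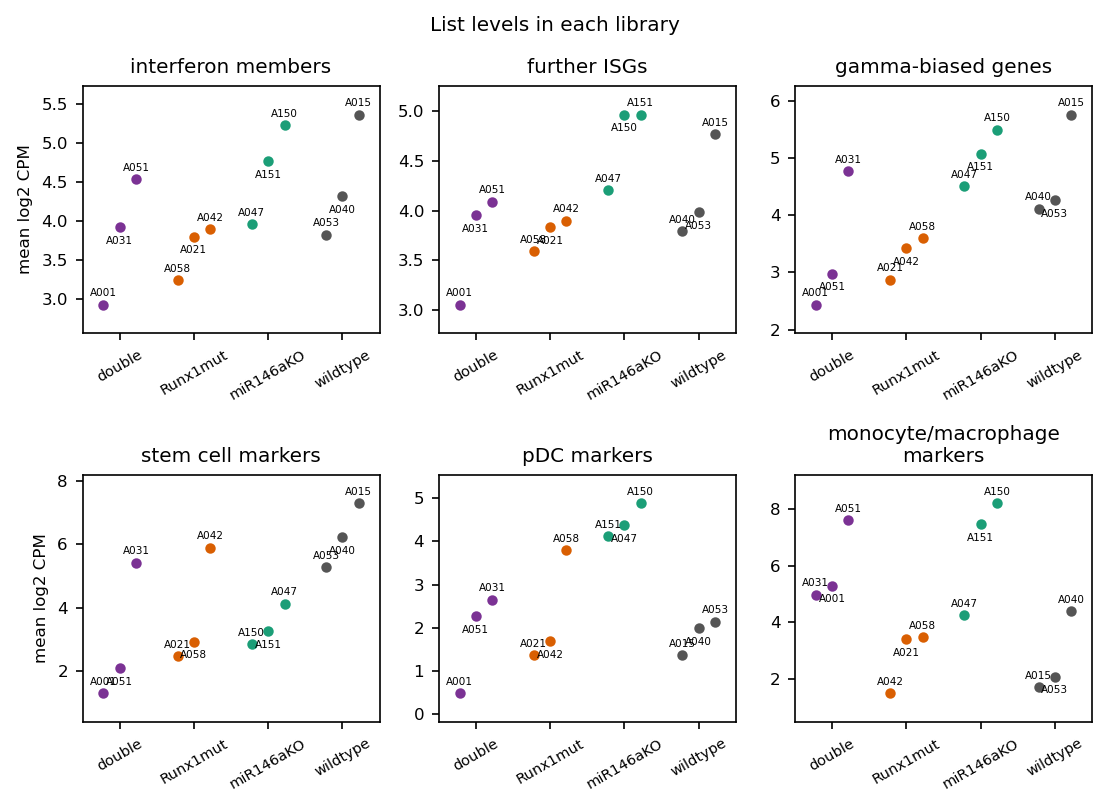
Mean log2 CPM of 6 gene lists in each library (points, with the library named), by genotype; double stands for miR146aKO_Runx1mut, ISGs for interferon-stimulated genes and pDC for plasmacytoid dendritic cells. The member level of every Runx1mut library lies below that of every miR146aKO library and all other pairs of groups overlap, with A015, A150 and A051 at the top of theirs, stem cell markers are lower outside wildtype except in A031 and A042, and monocyte and macrophage markers are high in A150, A151 and A051.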

How the data were processed

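The authors deposited raw counts per gene symbol for 12 libraries and 24421 symbols. The submitters' processing notes name the build mm10 and list HISAT2 2.0.4 (an aligner), featureCounts 1.5.2 (a counter) and FastQC 0.11.2. No label gives the annotation release, the strand setting or the handling of reads with several matches. Per the labels' protocols, RNA was amplified with the NuGEN Ovation v2 system and libraries were made with Nextera XT, which keeps no strand.

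Columns were placed in groups by a deposited table of genotypes that has no replicate numbers; 0 columns were left out. Genes were tested by quasi-likelihood in edgeR 4.0.16 under R 4.3.3, in 1 fit over 12 libraries, after filterByExpr and TMM scaling, with Benjamini-Hochberg adjustment over 12744 genes; a gene was called at an adjusted p under 0.05. The 8 comparisons were the 5 between genotypes, both averaged effects and the interaction, which is the miR-146a effect with mutant Runx1 minus that with intact Runx1. The script was tested on simulated data. Alternatives were RLE scaling, DESeq2 1.42.0, limma-voom (limma 3.58.1), no filter, library sizes without Rn45s, a Y-linked covariate, only the libraries compared, and leaving out each library. Counts of members on either side were added as a measure after the data were seen. Levels are CPM with TMM factors; list levels are mean log2 CPM with a prior count of 2. Chi-square statistics per gene averaged at least 41.6 between libraries of a genotype, so none was taken for a copy. Named genes were the 2 members of highest mean CPM per role and the 3 of smallest p per comparison, and likewise the 2 highest per pathway list and any called gene, of which 1 is not reported here. The members and all lists were chosen with earlier results of these data known, and amplified reads are not independent molecules. Promoter and microRNA sequences are from RefSeq (GRCm38.p6), gene positions and 3′ UTRs from GENCODE M21 (GRCm38, the same build as mm10). Of the members, 37 matched a GENCODE gene and 29 a RefSeq promoter; Dhx58, Zbp1, Oas2, Mx1, Mx2, Usp18, Rtp4 and Parp14 did not.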

Additional observations from a re-analysis of the deposited data

Results flagged for a closer look

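Ifitm3 was flagged because its libraries separated in opposite directions with miR-146a loss on the 2 Runx1 backgrounds. The separation and the interaction below rest on the values that flagged it, so they are no separate test. Of all genes tested, 3.85% were higher without overlap in the double genotype relative to Runx1mut. In miR146aKO relative to wildtype 10.3% were lower without overlap. The edgeR adjusted p of the double genotype over Runx1mut was 0.998. On mutant Runx1 all 3 double genotype libraries (178, 284 and 299 CPM) were above all 3 Runx1mut libraries (172, 104 and 16.5 CPM), and on intact Runx1 all 3 miR146aKO libraries (208, 146 and 148 CPM) were below all 3 wildtype libraries (941, 581 and 509 CPM). The interaction was a log2 value of 3.40, with an SE of 0.85 and an adjusted p of 0.312 by edgeR, so it did not pass the correction over 12744 genes.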

How the results depend on the processing

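The count of members called was the value that moved most with the test. It was 0 with the edgeR test in all 8 comparisons, and also 0 with RLE scaling, limma-voom, library sizes without Rn45s and the Y-linked covariate. DESeq2 called 3 members in Runx1mut relative to wildtype (lower, against 0.532% of genes). It called 4 in miR146aKO relative to wildtype (3 higher, against 4.86%, and 1 lower, against 2.76%). In the double genotype it called 2 relative to wildtype (lower, against 0.910%) and 5 relative to miR146aKO (lower, against 3.51%). It called 3 for the averaged Runx1 mutation (lower, 2.24%), 1 for averaged miR-146a loss (higher, 3.06%) and 1 for the interaction (higher, 0.667%). In the double genotype relative to Runx1mut it called 0 (against 0.5% higher and 0.0666% lower). The edgeR test with no filter on low counts called 2 (lower, against 0.364% of genes), 5 (2 higher, against 2.83%, and 3 lower, against 1.31%), 1 (lower, 0.328%), 2 (lower, 1.53%), 4 (lower, 1.22%), 1 (higher, 2.56%), 1 (higher, 0.463%) and 0 in the same order. With only the libraries compared, 1 member was called in miR146aKO relative to wildtype, among 158 genes. Leaving out 1 library gave 0 to 1 there, namely Ifitm1 without A047 and Ifitm3 without A058, and 0 elsewhere. The share of all genes called in those fits is not given here. The cause of the differences between settings was not tested.

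The members' median log2 fold change kept its side of 0 under every setting run for Runx1mut relative to wildtype, the double genotype relative to miR146aKO and both averaged effects, and not for the other 4 comparisons. It was 0.0125 by limma-voom in the double genotype relative to Runx1mut and -0.21 by limma-voom for the interaction. Leaving out 1 library at a time gave -1.18 to -0.41 for Runx1mut and -0.26 to 0.61 for miR146aKO relative to wildtype. For the double genotype it gave -1.22 to 0.14 relative to wildtype, -0.042 to 0.76 relative to Runx1mut and -1.09 to -0.26 relative to miR146aKO. It gave -1.01 to -0.55 for the averaged Runx1 mutation, 0.15 to 0.70 for averaged miR-146a loss and -0.20 to 0.68 for the interaction. The 3 members of smallest p in each comparison kept their direction there under every setting run; the other members named were not followed singly across settings. No paired analysis was possible because the columns carry no replicate numbers. The common biological coefficient of variation was 0.809 with 3 libraries per genotype, and the smallest difference that could pass was not measured.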

Other observations

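Members with an ISRE match and members without one were compared as a description. In Runx1mut relative to wildtype 15 of 16 members with a match and 11 of 13 without one lay on the lower side, with medians of -0.89 and -0.82. In miR146aKO relative to wildtype 5 of 16 with a match and 8 of 13 without one lay on the higher side, with medians of -0.36 and 0.27. The motif was also present in 26 of 56 further interferon-stimulated genes with a RefSeq promoter.

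The interaction had 23 members on the higher side (against 50.9% of genes) and 14 on the lower (against 49.1%), with a median of 0.12. There 3 members had an unadjusted p under 0.05 on the higher side (8.11% of members, against 4.42% of genes) and 1 on the lower (against 5.04%). The edgeR test called 0 of them, limma-voom 0 and DESeq2 1, Ifitm3 (against 0.667% of genes).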
